A study of Rattus norvegicus with 12 samples.

Results

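Intergenic circular RNAs are the entries of the deposited circRNA table whose type is given as intergenic and which carry no host gene. All rows of that type were taken, which gave 833 of 21876 entries (3.81%) and 29173 of 284534 back-splice reads (10.3%). The table covers liver of wild-type Wistar rats, all fed a high-fat diet (60% of calories from fat) for 4 weeks and given streptozotocin, a toxin of pancreatic beta cells, once at 35 mg/kg after 16 h of fasting. Rats whose fasting glucose exceeded 16.7 mmol/L when read 3 days after the toxin went on to surgery: a sham operation, or sleeve gastrectomy, which takes out the greater part of the stomach. The groups were sham (5 libraries), sleeve gastrectomy (5 libraries, sampled 3 months after surgery) and relapse (2 libraries, from rats whose diabetes returned after sleeve gastrectomy), and all 3 groups carried the diet and the toxin. When the sham and relapse livers were taken is not given in the sources used here, and the labels do not say that each library came from its own animal, so p-values measure only the spread between these libraries, which may be technical.

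A circRNA forms when the spliceosome joins the donor site at the end of an exon back to an acceptor site upstream, which closes the RNA into a loop without free ends. Loops resist the exonuclease RNase R, which had been used here to remove linear RNA, and they are recognised by reads that cross the back-splice junction. Most described circRNAs consist of exons of protein-coding genes. The circles called intergenic carry no host gene in the table, but the rule behind this type is not given in the sources used here. Some of them share ends with circles of named genes, as described below. The class may therefore depend on the gene annotation and the calling rule as well as on the RNA.

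The libraries held 18176 to 37229 back-splice reads, of which 1523 to 4013 were intergenic, spread over 161 to 289 intergenic entries per library. Of 10 hepatocyte marker genes, 9 hosted exonic circles with reads (Ttr was at 0), whereas cholangiocyte and exocrine pancreas markers hosted none, 1 of 5 macrophage markers, 2 of 4 stellate cell markers and 2 of 4 endothelial markers did. In bulk liver, fewer cells of a type and less RNA per cell cannot be told apart. No 2 libraries of a group held identical values.

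Most intergenic circles were rare and a few were abundant. Of the 833 entries, 395 (47.4%) had reads in a single library, and these held 4.47% of the intergenic reads. Only 27 entries had reads in all 12 libraries, and they held 36.0% of the reads. The most abundant entry alone held 11.4% of the reads, the top 3 held 23.1%, the top 10 held 45.7%, and 14 entries were enough to reach 50%. Levels are given as reads-per-million (RPM) of all back-splice reads of a library. In the smallest library, a count of 0 allows up to 165 RPM, taken as 3 reads. This assumes that single reads were recorded, and the limit is higher if they had been removed.

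No intergenic entry had a count of 1 in any library: the smallest value above 0 was 2, and 524 of 2609 values above 0 (20.1%) were 2. Among exonic entries that name their host by gene symbol, 36.8% of values above 0 were single reads, and among exonic entries that name it by Ensembl identifier, 2.92% were. Whether single reads had been removed before deposit is not given in the sources used here. Abundant entries were also at 0 in some libraries. Of 36 intergenic entries with at least 120 reads, 18 (50%) were at 0 in at least 1 library, against 24 of 50 (48%) such exonic identifier entries and 33 of 261 (12.6%) such exonic symbol entries.

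The circles spanned long stretches of genome. The span from start to end ran from 156 to 196764 bases, with a median of 10989 and quartiles of 3231 and 30030. Each entry was written with an exon count of 1, so the spliced length inside the span is not known. Starts are as the table gives them, and the convention of the start column differs by 1 base between kinds of entries, so a span is uncertain by 1 base. Of the 833 entries, 95 (11.4%) were under 1 kb and these held 18.9% of the reads. Another 46 entries (5.52%) were over 100 kb, whereas 1.02% of exonic entries were. Among identifier entries, 1.22% of exonic and 3.08% of intronic ones were. No intergenic entry passed 200 kb, nor did any exonic or intronic identifier entry, and 27 exonic symbol entries did.

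Within each library, intergenic entries were longer and better supported than exonic and intronic ones. The median span of detected intergenic entries was 10647 ± 1182 bases (SD, n = 12 libraries), against 5321 ± 243 for exonic and 859 ± 105 for intronic entries. Reads per detected entry were 11.1 ± 1.79 for intergenic, 5.31 ± 0.647 for exonic and 3.84 ± 0.508 for intronic entries. Both differences had the same sign in 12 of 12 libraries (exact paired permutation test, two-sided, p = 0.000488, the smallest that 12 pairs allow, adjusted p = 0.000488 over 8 tests). The libraries detect many of the same entries, so this test speaks of the libraries and not of independent circles. The missing single reads move with the read difference and their part in it was not tested. Against identifier entries alone, where single reads were almost absent too, the differences kept their sign in 12 of 12 libraries: the median span was 6789 ± 484 bases for exonic and 8922 ± 775 for intronic entries, and reads per entry were 7.06 ± 0.938 and 6.14 ± 0.882 (exact paired permutation test, adjusted p = 0.000651 for each).

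**Figure D1:**
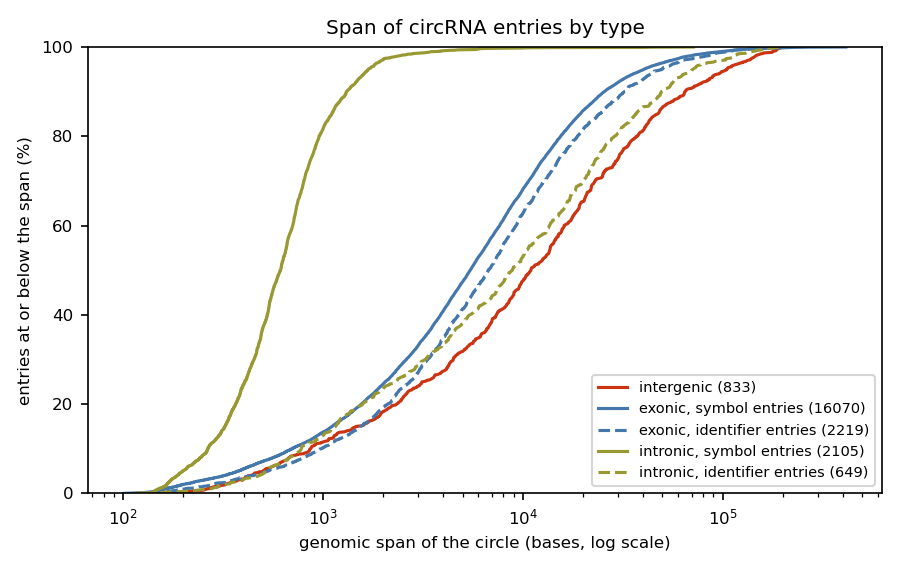
Cumulative share of entries (%, vertical axis) at or below a genomic span (bases, log scale) for intergenic, exonic and intronic entries, the last 2 split by whether the host is written as a symbol or an identifier. The intergenic curve lies furthest to the right above about 5 kb, with a median of 10989 bases against 5455 for exonic and 613 for intronic symbol entries, and 6703 and 8880 for the identifier entries.

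The minus strand held more intergenic circles than the plus strand, 450 against 383. The plus-strand share of detected intergenic entries was 46.1 ± 1.99%, below the 51.2 ± 0.569% of exonic and the 62.5 ± 2.28% of intronic entries in 12 of 12 libraries (exact paired permutation test, adjusted p = 0.000488). Against identifier entries alone the gaps were smaller, with 49.1 ± 1.67% for exonic and 53.6 ± 2.70% for intronic entries. The intergenic share was again lower in 12 of 12 libraries (exact paired permutation test, adjusted p = 0.000651 for each). As with span, the libraries detect many of the same entries, so these tests speak of the libraries and not of independent circles. Weighted by reads, the intergenic share was 43.2 ± 6.23% against 47.4 ± 0.932% for all exonic circles, lower in 8 of 12 libraries, and did not pass (exact paired permutation test, adjusted p = 0.0566).

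Intergenic circles lay on every chromosome of the table that was named, from 1 to 20, X and Y. Chromosome 1 held 116 of them (13.9% of intergenic entries, 11.5% of exonic entries). Chromosome 7 held 62 (7.44% against 4.80% of exonic entries), chromosome 17 held 43 (5.16% against 2.99%) and chromosome 15 held 40 (4.80% against 2.80%). Chromosome 8 held 28 (3.36% against 6.24%) and chromosome 20 held 8 (0.960% against 2.20%). These chromosome shares are a description and were not tested. By reads, chromosome 2 led with 22.6%, because it carries the most abundant entry.

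Some intergenic circles lay across circles of named hosts, but most lay apart from them. A named host is any gene given for an exonic or intronic entry, also where only an identifier or clone name is given. On the same strand, 257 of the 833 entries (30.9%) overlapped the span of at least 1 circle with a named host, and these held 34.7% of the intergenic reads. Of these, 249 overlapped circles of 1 host, 8 overlapped circles of 2 or more, and 26 lay wholly inside 1 circle. The overlapping circles had a median span of 28172 bases, the others of 6987. At least 50% of the span was overlapped in 11.9% of all entries. For the 576 entries with no overlap, the nearest named-host circle on that strand was at a median of 125090 bases, with 38 entries within 10 kb and 70 entries beyond 1 Mb.

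Junction ends were often reused. An end was shared with a host circle, allowing 1 base at the start column, by 148 entries (17.8%): 112 shared the 3′ end (the donor side), 45 the 5′ end (the acceptor side) and 9 both. Entries that shared an end spanned a median of 26827.5 bases, and the others 8939. Among themselves, 434 of the 833 entries shared an end with another intergenic entry. Grouped by overlap on 1 strand, the 833 entries formed 512 loci, of which 356 held a single entry.

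The locus with the most entries lies on the minus strand of chromosome 1, from 215905137 to 215969554 (Rnor_6.0). Only its longest circles overlap circles of AC099449, a gene known only by its clone name. Its 12 circles combine 2 donor-side ends, 28 bases apart, with 6 acceptor-side ends, and each of the 12 combinations occurs once. The donor end at 215905137 took 324 reads in its 6 circles and the one at 215905165 took 23. The shortest circle of this set, circRNA2584 (215905137-215907047, 1911 bases), was also the most read, with 100 reads in 10 libraries, and the longest on the same donor end, circRNA2589 (64418 bases), had 21 reads. circRNA2584 overlaps no host circle and lies 21326 bases from the nearest circle of AC099449. In order of span, the 6 circles of the main donor end had 100, 56, 59, 47, 41 and 21 reads.

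**Figure D2:**
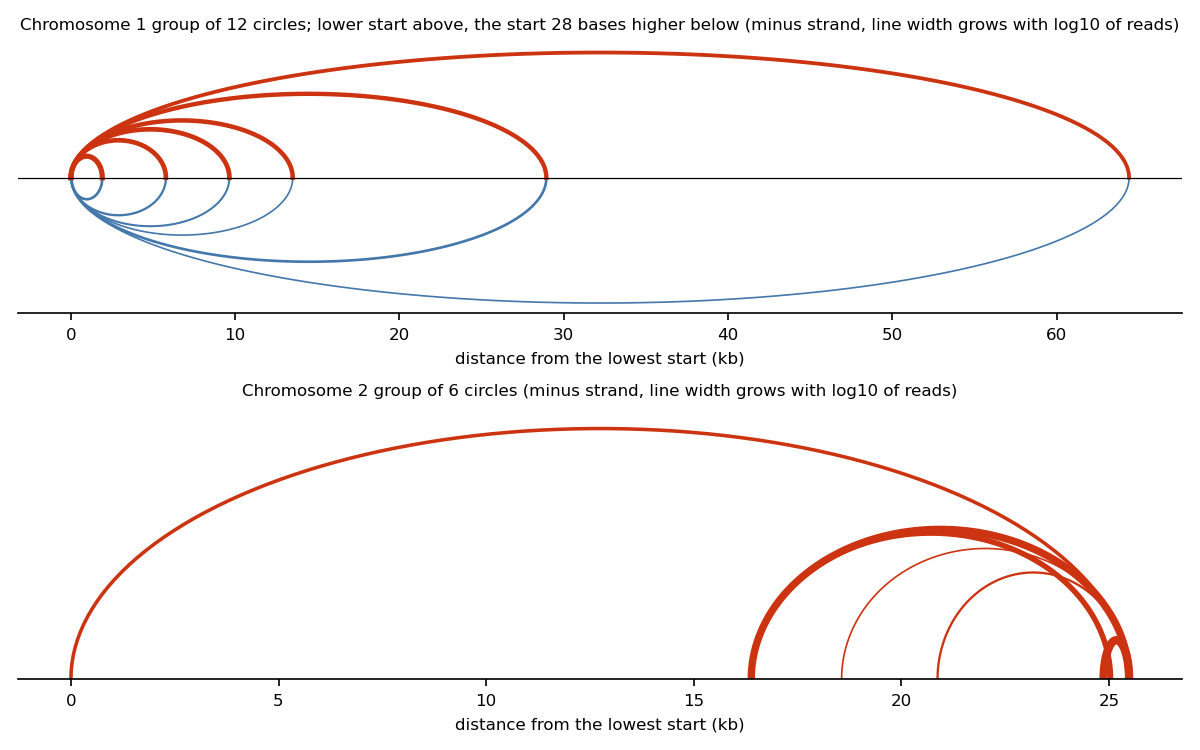
Circles of 2 intergenic loci drawn as arcs between their ends, with distance from the lowest start of the locus (kb) on the horizontal axis and line width rising with the log10 of reads. In the chromosome 1 locus 12 circles join 2 donor-side ends to 6 acceptor-side ends (324 reads above the axis, 23 below), and in the chromosome 2 locus 5 of 6 circles meet at 1 acceptor-side end on the right.

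A second chromosome 1 locus (minus strand, 220030451 to 220059498) held 9 circles and 1511 reads, of which circRNA2593 took 1280. The next loci had 8 circles each. The one on chromosome 4 (minus strand, 58367537 to 58500197) overlaps circles of AABR07060133 and held 166 reads, with circRNA8062 (51 reads) the most read. circRNA8062 itself overlaps no host circle. The other, on chromosome 1 (minus strand, 148377710 to 148406631), held 92 reads, with circRNA2579 (28 reads) the most read.

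The most abundant intergenic circle was circRNA6045, a short circle of 613 bases at chr2:224802843-224803455 on the minus strand. Its counts in sham 1 to 5 were 339, 245, 263, 713 and 336, in sleeve gastrectomy 1 to 5 they were 326, 258, 0, 357 and 449, and in relapse 1 and 2 they were 0 and 48. Sham 4 stood far above the other sham libraries, sleeve gastrectomy 3 and relapse 1 had no read, and both relapse libraries lay below every sham library. The mean was 12184 ± 9576 RPM (SD, n = 12), with 17952 ± 10072 in sham (n = 5), 11031 ± 6380 in sleeve gastrectomy (n = 5) and 645 ± 912 in relapse (n = 2). The log2 fold change from sham to relapse was -4.62 (SE 1.91), which did not pass (edgeR, adjusted p = 0.873).

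The same acceptor-side end is used by circRNA2662 (chr2:224794357-224803455, 9099 bases), which was the fifth by abundance, with 3966 ± 1215 RPM. Its counts were 106, 89, 107, 92 and 117 in sham, 94, 26, 61, 125 and 129 in sleeve gastrectomy, and 52 and 120 in relapse. Unlike circRNA6045 it had reads in all 12 libraries, including the 2 in which circRNA6045 was at 0. The donor-side end of circRNA2662 is that of a circle of Tmem56, a gene for a transmembrane protein, whose circles cover 50.3% of the span. circRNA6045 itself overlaps no host circle and lies 3911 bases from the nearest Tmem56 circle. Another 3 circles end at the same acceptor side: circRNA15517 with 16 reads, circRNA13978 with 4 and circRNA16440 with 2.

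The next most abundant circles, circRNA2673 and circRNA2613, were found in every library. circRNA2673 (chr3:81127393-81143240, plus strand, 15848 bases) shares its donor-side end with a circle of Phf21a, a subunit of a histone demethylase complex. Its counts were 166, 98, 156, 170 and 157 in sham, 155, 202, 121, 203 and 171 in sleeve gastrectomy, and 131 and 318 in relapse, which gives 7229 ± 1368 RPM with overlapping groups. circRNA2613 (chr13:113735261-113748416, plus strand, 13156 bases) had 4810 ± 1524 RPM. It overlaps no host circle, and the nearest ones on either strand belong to Plxna2, a semaphorin receptor, and Cr1l, a complement regulator. The Cr1l circle lies on the other strand. In the RefSeq gene order of the assembly GRCr8, Cd34 and Cd46 stand between those 2 genes. The nearest hosts of the abundant circles were added to the naming rule after their coordinates were seen.

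The next circles by abundance were also present throughout. circRNA2593 (chr1:220047471-220049075, minus strand, 1605 bases) had 4508 ± 692 RPM and reads in 12 libraries. Its nearest host circles on either strand were in Rbm4b, an RNA-binding protein gene, and Dpp3, a peptidase gene. On its own strand, the nearest on the Rbm4b side was in Rhod, 369323 bases away. circRNA2657 (chr2:33950934-33955969, minus strand, 5036 bases) had 3928 ± 787 RPM between circles of Erbin, a scaffold protein gene, and Trappc13, a vesicle tethering gene. circRNA2582 (chr1:204959173-204961691, plus strand, 2519 bases) had 2464 ± 579 RPM and shares its donor-side end with a circle of Zranb1, a deubiquitinase gene. All 3 were present in every library.

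A pair of the 10 dropped to 0 in a single sleeve gastrectomy library. For circRNA2601 (chr10:71515700-71519615, plus strand, 3916 bases), the nearest host circle on either strand was in LOC102552988, 25999 bases away. On its own strand the nearest was in Acaca, the acetyl-CoA carboxylase gene of fatty acid synthesis, 27364 bases away. The counts of circRNA2601 were 68, 24, 32, 35 and 35 in sham, 39, 73, 31, 76 and 0 in sleeve gastrectomy, and 97 and 156 in relapse. Both relapse libraries, at 5251 and 4190 RPM, lay above every other library, but the difference from sham did not pass (edgeR, log2 fold change 1.44, SE 0.94, adjusted p = 0.909). circRNA2699 (chr6:12179226-12179776, plus strand, 551 bases) had counts of 78, 56, 54, 48 and 54 in sham, 34, 40, 0, 69 and 56 in sleeve gastrectomy, and 27 and 89 in relapse. By RPM its sham libraries, from 2407 upward, all lay above the sleeve gastrectomy libraries, which reached 2261 (edgeR, log2 fold change -0.73, SE 0.68, adjusted p = 0.997).

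**Figure D3:**
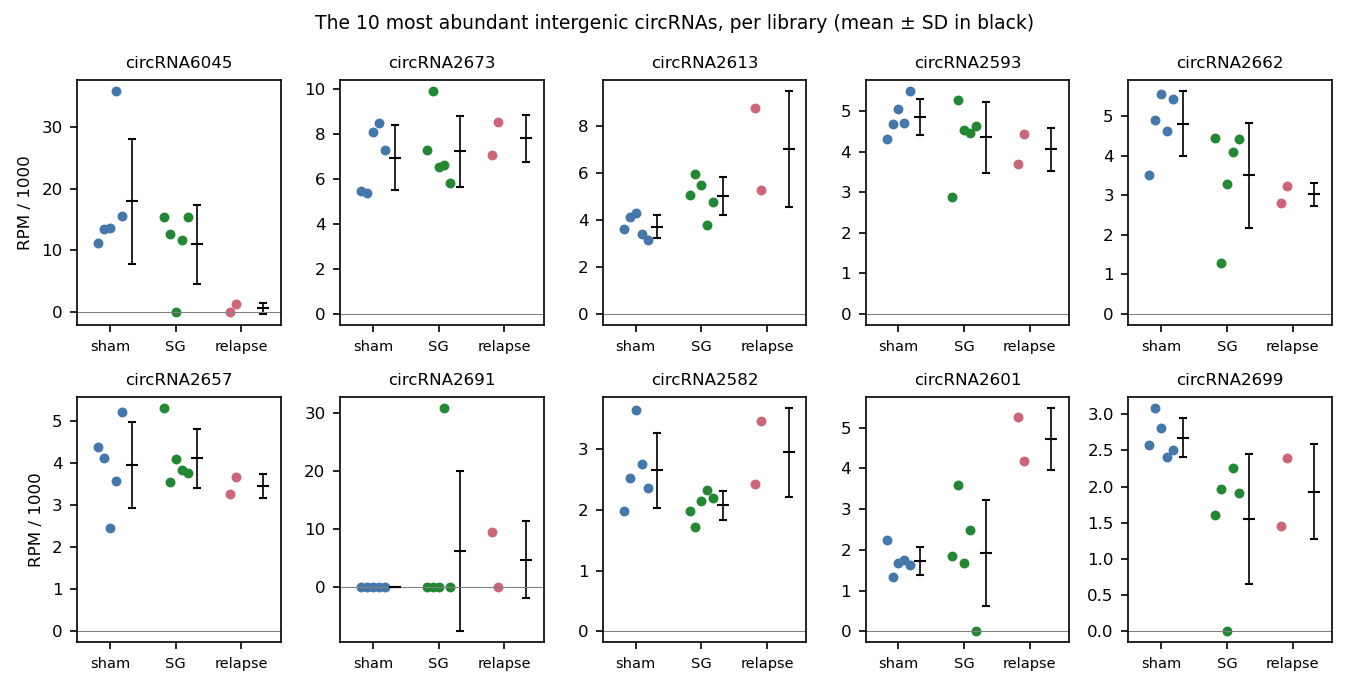
RPM, in units of 1000 (vertical axis), of the 10 most abundant intergenic circRNAs in each library, with sham, sleeve gastrectomy (SG) and relapse side by side and the group mean ± SD in black. circRNA6045 ranges from 0 to 35752 RPM, circRNA2691 is at 0 in 10 of 12 libraries, and circRNA2673 stays between 5392 and 9925 RPM.

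The longest intergenic circle, circRNA2691 (chr5:77368025-77564788, minus strand, 196764 bases), was the seventh by abundance although 10 libraries had none of it. It had 941 reads in sleeve gastrectomy 4 and 175 in relapse 1, and 0 in every other library. These are 30832 and 9473 RPM. The circle lies in the cluster of alpha-2u globulin and major urinary protein genes, which code for lipocalins made by the liver, and circles of 2 of those genes, alpha-2u globulin PGCL3 and Mup5, cover 100% of it. This cover comes from 2 entries with 17 and 10 reads, all of them in sleeve gastrectomy 4. The genes of this family are near-identical copies in tandem, so reads could be split or joined between copies and the entry is uncertain. In this cluster the table holds 9 entries on the minus strand with 1292 reads, 4 of them intergenic. Sleeve gastrectomy 4 held 983 of these reads and relapse 1 held 253, whereas the other libraries held between 0 and 23. The third circle by length among those with at least 15 reads, circRNA12330 (177983 bases), lies there as well, with 15 reads in sleeve gastrectomy 4 and none elsewhere.

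Not every long circle was found in few libraries. The second-longest circle among those with at least 15 reads, circRNA2615 (chr14:5607718-5786184, minus strand, 178467 bases), had only 76 reads but had them in all 12 libraries. Its counts were 4, 2, 8, 3 and 4 in sham, 6, 5, 14, 13 and 5 in sleeve gastrectomy, and 3 and 9 in relapse, and the groups overlap. It overlaps no host circle, and the nearest on either side, in Zfp326 and Abcg3l1, are 585422 and 650444 bases away. The shortest circle with at least 15 reads was circRNA6127 (chrX:119152559-119152714, plus strand, 156 bases), with 53 reads in 5 libraries. It was followed by circRNA2625 (299 bases, 15 reads in 5 libraries) and circRNA6083 (chr5:105114416-105114740, 325 bases, 241 reads in 10 libraries).

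The intergenic class as a whole took a similar share of reads in the 3 groups. The share was 9.45, 10.1, 10.2, 12.1 and 10.4% in sham, 9.66, 10.3, 8.21, 13.1 and 9.74% in sleeve gastrectomy, and 9.55 and 9.68% in relapse. Sleeve gastrectomy 4 was highest and sleeve gastrectomy 3 lowest, and the relapse libraries lay inside the range of both other groups. That position depended on circRNA6045. Without it the share was 8.33 to 8.86% in the sham libraries and 9.55% in both relapse libraries, so that relapse lay above every sham library (difference 0.909 percentage points, exact permutation p = 0.0476, adjusted p = 0.5), while the sleeve gastrectomy libraries ran from 8.12 to 11.98%. In this share and the next, the library totals still held the reads of the entries left out. This lowers the share more in sham, where circRNA6045 was abundant, than in relapse, and widens that difference. Without circRNA6045 and circRNA2691, the 2 entries of largest SD, the share was 8.64 ± 0.221% (SD, n = 5) in sham, 8.49 ± 0.423% (n = 5) in sleeve gastrectomy and 9.08 ± 0.666% (n = 2) in relapse. Relapse no longer lay above every sham library: relapse 1, at 8.61%, was inside the sham range of 8.33 to 8.86%. Relapse 2, at 9.55%, was above that range.

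**Figure D4:**
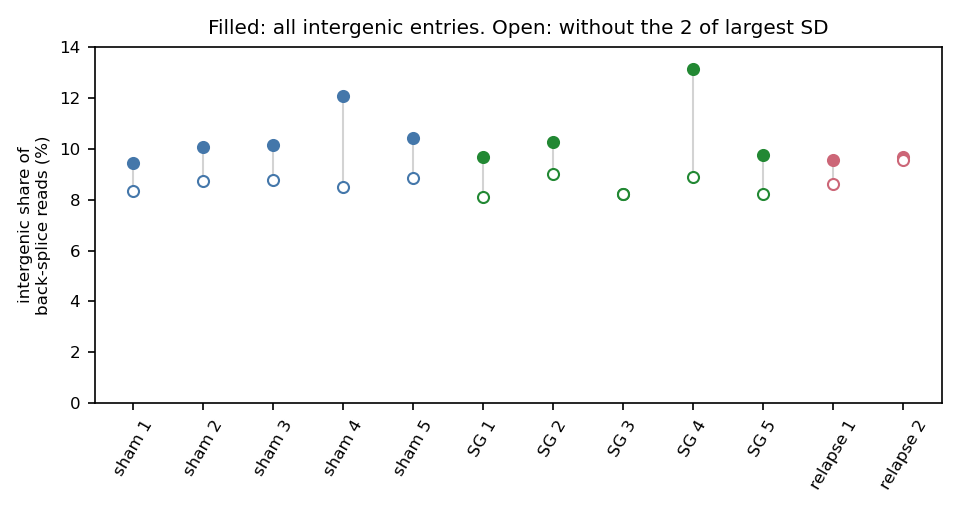
Intergenic share of back-splice reads (%, vertical axis) in each of the 12 libraries, with all intergenic entries (filled) and without circRNA6045 and circRNA2691 (open, library totals unchanged). The filled points run from 8.21 to 13.1%, and the gap between filled and open points is widest in sham 4 and sleeve gastrectomy 4.

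Of 7 measures per library, none passed after adjustment over 21 tests (exact permutation tests, two-sided, adjusted p of 0.958 or above). For the 14 tests with relapse this says nothing about a difference: their smallest possible p is 0.0476, and all 21 tests would have to reach it before 1 of them could pass. Detected intergenic entries numbered 214 ± 32.6 in sham, 218 ± 49.6 in sleeve gastrectomy and 225 ± 90.5 in relapse. Their median span was 11051 ± 1344, 10323 ± 1167 and 10451 ± 1135 bases. Reads per detected entry were 10.6 ± 1.69, 11.3 ± 2.28 and 11.7 ± 1.06. Without circRNA6045 they were 8.81 ± 0.826, 10.1 ± 1.95 and 11.7 ± 0.977, with both relapse libraries above every sham library (difference 2.84, exact permutation p = 0.0476, adjusted p = 0.5). The plus-strand share of intergenic reads was 43.1, 41.5, 43.6, 37.4 and 37.5% in sham, 42.2, 47.7, 49.5, 32.4 and 39.8% in sleeve gastrectomy, and 49.6 and 54.5% in relapse. Both relapse libraries were above every library of the other groups, and the difference from sham had an exact permutation p of 0.0476, with an adjusted p of 0.958. Most of that difference went with circRNA6045, a minus-strand circle: without it the relapse minus sham difference was 3.57 in place of 11.5 percentage points (exact permutation p = 0.333, adjusted p = 0.907), and relapse 1, at 49.6%, lay below sham 3 (50.4%) and sham 4 (53.1%).

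Each comparison between groups was then tested circle by circle. Of the 833 intergenic entries, 144 passed the filter on low counts, and they held 83.3% of the intergenic reads. The other 689 were too sparse to test. The test was edgeR's quasi-likelihood test on all 1525 entries that passed, with Benjamini-Hochberg adjustment and a threshold of 0.05. The 2 comparisons with relapse share its libraries, and each pair of comparisons shares 1 group.

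The first comparison asked which circles differ after sleeve gastrectomy from sham. No intergenic entry passed (edgeR, smallest adjusted p = 0.997), and 0 of 1525 entries (0%) passed in all. At an unadjusted p under 0.05, 7 of 144 intergenic entries (4.86%) stood out, against a background of 3.54% (54 of 1525): 4 were higher (background 1.64%) and 3 lower (background 1.9%). The median log2 fold change was -0.00 over the intergenic entries and -0.02 over all tested. Groups did not overlap in 1 intergenic entry that was higher (0.694% against 0.459% of all tested) and in 3 that were lower (2.08% against 0.525%).

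The smallest p belonged to circRNA5968 (chr10:92474821-92476192, minus strand, 1372 bases). Its counts were 18, 9, 15, 7 and 10 in sham, 3, 5, 0, 7 and 0 in sleeve gastrectomy, and 0 and 12 in relapse. By RPM every sham library lay above every sleeve gastrectomy library, at 351 or more against 246 or less (edgeR, log2 fold change -2.04, SE 0.78, adjusted p = 0.997). It lies 42526 bases from the nearest circle of Kansl1, a subunit of a histone acetyltransferase complex. circRNA8048 (chr18:48853173-48874963, plus strand, 21791 bases), which shares its donor-side end with a circle of the kinase gene Csnk1g3, had 2, 5 and 8 reads in sleeve gastrectomy 1, 2 and 4 and none elsewhere (edgeR, adjusted p = 0.997). Its 15 reads just reach the filter, and all of them come from the group in which it is higher.

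The second comparison set relapse against sleeve gastrectomy, that is, the state after return of diabetes against the state after the operation. No intergenic entry passed (edgeR, smallest adjusted p = 0.787), and 0 of 1525 (0%) passed in all. At an unadjusted p under 0.05 there were 5 of 144 (3.47%), against a background of 4.59%: 3 were higher in relapse (background 1.64%) and 2 lower (background 2.95%). The median log2 fold change was -0.11, and -0.08 over all tested. Groups did not overlap in 6 entries that were higher in relapse (4.17%, background 4.85%) and 1 that was lower (0.694%, background 4.07%).

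The smallest p values in this comparison came from a pair of nearly identical circles on chromosome 4. circRNA8062 (chr4:58367537-58373168, minus strand) had 6, 3, 3, 4 and 4 reads in sham, 9, 0, 8, 7 and 7 in sleeve gastrectomy, and 0 and 0 in relapse. circRNA2679 (chr4:58367537-58373171) has the same start and an end 3 bases away, and it had 8, 0, 0, 0 and 7 reads in sham, none in sleeve gastrectomy, and 5 and 10 in relapse. The first was at 0 where the second was found in relapse, and the reverse held after sleeve gastrectomy. Their log2 fold changes were -5.67 (SE 1.93) and 5.69 (SE 2.05), with an adjusted p of 0.787 for both (edgeR). Each is fitted against a group at 0 and depends on the prior count. Summed, the pair had 14, 3, 3, 4 and 11 reads in sham, 9, 0, 8, 7 and 7 in sleeve gastrectomy, and 5 and 10 in relapse. The sums gave 299 ± 173, 265 ± 177 and 270 ± 1.45 RPM, so the groups overlapped, and the log2 fold change of the sum was 0.03 (edgeR, adjusted p = 1). This sum was added after the data were seen. In all, 8 pairs of intergenic entries have both ends within 5 bases of each other.

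circRNA6102 (chr7:71069214-71077102, plus strand, 7889 bases) had the third p in order of size, with 83 reads in relapse 2, 11 in sham 3 and 0 in the other 10 libraries. Its log2 fold change of 7.82 (SE 2.71, edgeR, adjusted p = 1) rests on relapse 2, since relapse 1 had no read.

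The third comparison set relapse against sham. No intergenic entry passed (edgeR, smallest adjusted p = 0.636), and 0 of 1525 (0%) passed in all. At an unadjusted p under 0.05 there were 8 of 144 (5.56%), against a background of 5.25%: 3 were higher in relapse (background 2.03%) and 5 lower (background 3.21%). The median log2 fold change was -0.04, and -0.06 over all tested. Groups did not overlap in 10 entries that were higher in relapse (6.94%, background 6.3%) and 9 that were lower (6.25%, background 5.57%). In this comparison all these shares were near those of all tested entries. Leaving out relapse 2 leaves a relapse group of 1 library, assumed to vary like the other groups. In that fit circRNA5976 was past the threshold here and against sleeve gastrectomy (edgeR, adjusted p = 0.0072 and 0.000282). It had 0 reads in relapse 1 but 48 in relapse 2, and 8 to 43 in the other libraries, so the 2 relapse libraries do not agree. It shares its donor-side end with a circle of St3gal6, a sialyltransferase gene, and is named here only because of that fit.

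The smallest p of any intergenic entry was that of circRNA2613, the third circle by abundance. Its counts were 109, 75, 83, 68 and 68 in sham, 107, 121, 102, 116 and 139 in sleeve gastrectomy, and 162 and 196 in relapse. In RPM these are 3608, 4126, 4320, 3410 and 3161 in sham, 5056, 5945, 5501, 3801 and 4759 in sleeve gastrectomy, and 8770 and 5265 in relapse. Both relapse libraries and 4 of 5 sleeve gastrectomy libraries lay above all sham libraries, and relapse 2 lay inside the sleeve gastrectomy range. Group means were 3725 ± 486 (n = 5), 5013 ± 813 (n = 5) and 7017 ± 2478 RPM (n = 2). The log2 fold change was 0.90 (SE 0.25) from sham to relapse (edgeR, adjusted p = 0.636) and 0.43 (SE 0.20) from sham to sleeve gastrectomy (edgeR, adjusted p = 0.997).

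circRNA8062 came next (edgeR, log2 fold change -5.13, adjusted p = 0.709), with the limit given above for the pair. The third was circRNA2655 (chr2:31396522-31416067, plus strand, 19546 bases), which had 7 reads in sleeve gastrectomy 2, 6 and 11 in relapse, and none in sham. It did not pass (edgeR, adjusted p = 0.709), and it reached the filter through the libraries in which it was found.

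**Figure D5:**
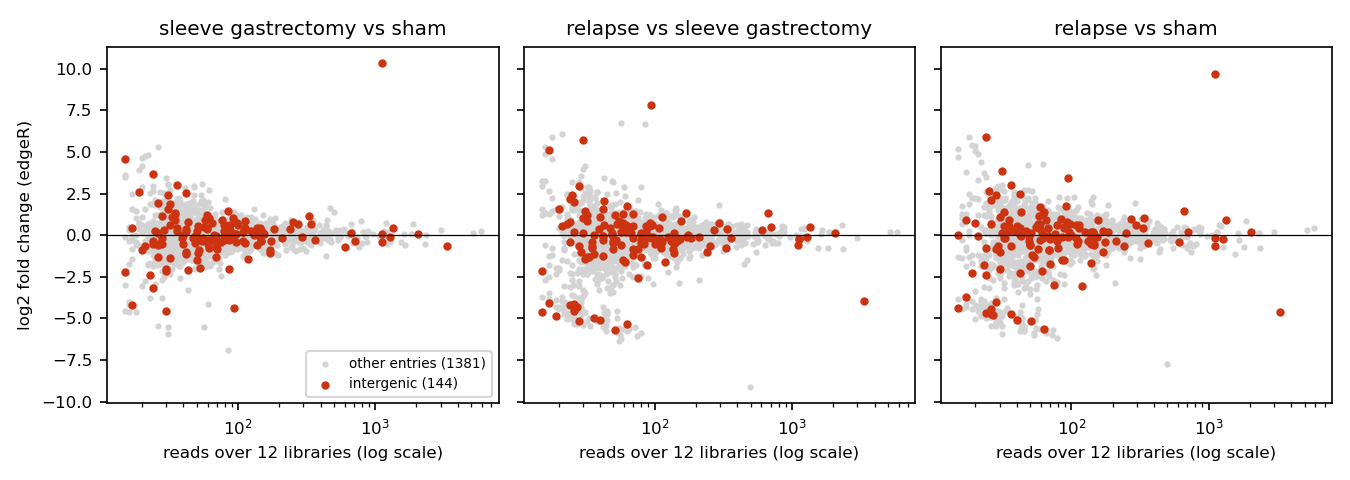
Log2 fold change from edgeR (vertical axis) against reads over the 12 libraries (log scale) for the 144 intergenic entries (red) and the other tested entries (grey) in each comparison. Most intergenic entries with more than 100 reads lie near 0; circRNA2691 at 10.33 and 9.70 and circRNA6045 at -3.97 and -4.62 are the exceptions with the most reads (the first is fitted against sham libraries that are all at 0).

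A pair of intergenic entries repeats the junction of an exonic identifier entry. circRNA9305 (chr15:23792824-23793336, 11 reads) has the end of circRNA2922 of Samd4a, an RNA-binding repressor of translation (26 reads), and a start 1 base apart. circRNA19045 (chr1:169534353-169534828, 11 reads) matches circRNA8095 (12 reads) in the same way. In neither pair did a library have reads in both entries, so for these junctions the type given varies between libraries.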

How the data were processed

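Back-splice reads of 12 liver libraries were analysed from the deposited table. Per the submitters' processing notes, the reads were handled with cutadapt 1.9, FastQC and TopHat2 2.0.10 on Rnor_6.0; the back-splice caller is not given in the sources used here. The values used are raw counts deposited by the authors. The authors' normalised signal (SRPBM) equals the count times a constant in each library and was not used further. RPM is the count divided by the back-splice reads of its library, times 1000000, without further scaling.

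edgeR 4.0.16 (R 4.3.3, TMM, robust quasi-likelihood, 1 mean per group) was run on all entries that passed filterByExpr (minimum count 5, total 15). It was tested on simulated data for the comparison of sleeve gastrectomy with sham. Of 1525 simulated entries (dispersion set to 0.1), 1222 passed the filter. Of 100 simulated 4-fold changes 86 were tested and 70 called, and of 100 simulated 8-fold changes 90 were tested and 83 called. Of 1046 tested unchanged entries, 12 were called. The dispersion was set and not estimated from these data, where 18 of 36 intergenic entries with at least 120 reads were at 0 in some library. The rates therefore check the procedure and do not give its power here, and no comparison with relapse was simulated. Single values used exact permutation tests over libraries. Alternatives were DESeq2 1.42.0, limma 3.58.1 (voom), other normalisations, filters, junction sums, a replicate block and leaving out each library. Same-numbered libraries showed no shared deviation, which does not exclude a pairing.

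Entries named are the 10 most abundant, the 3 of smallest p in each comparison, the 3 longest and 3 shortest with at least 15 reads, and the loci with most entries. The members and lists were chosen with earlier results of these data known. Host identifiers were joined to symbols inside the table (1449 of 1696). Intervals and floors cover counting error only.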

Additional observations from a re-analysis of the deposited data

Results flagged for a closer look

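In groups of 5 libraries, 9 of 50 groups tested among the named circles had 1 library far from the other 4. The rule was set for about 1 in 20 groups, a rate that sparse counts and circles picked for abundance, span or small p need not follow. The count is therefore a list for a closer look and no measure of an excess. Of the sham libraries, sham 4 stood apart for circRNA6045 (35750 RPM), sham 3 for circRNA2615 (416.4 RPM) and circRNA6102 (572.6 RPM), and sham 1 for circRNA2625 (99.3 RPM, 3 reads). After sleeve gastrectomy, library 3 was at 0.0 RPM for both circRNA6045 and circRNA2699, library 4 was far above the others for circRNA2691 (30830 RPM) and circRNA12330 (491.5 RPM), and library 2 for circRNA2655 (343.9 RPM). In 5 of the 9 groups the circle was at 0 in the other 4 libraries, and such a group is flagged whatever the value of the remaining library.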

How the results depend on the processing

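No intergenic circle passed in the 3 comparisons, and this held with DESeq2, limma-voom, the other normalisations, a minimum count of 10, junction sums and 2 groups alone. With the replicate block, each comparison had 1 call, circRNA2691. The labels do not say that replicate numbers pair the libraries. Correlations of same-numbered libraries, from -0.0655 to 0.0137, showed no sign of pairing but cannot exclude it. With no filter, relapse against sleeve gastrectomy had 1 call, circRNA6102 (log2 fold change 7.92, adjusted p = 1.25e-05). Leaving out 1 library at a time gave 0 to 1 calls against relapse, in both comparisons circRNA5976 without relapse 2, where relapse is 1 library assumed to vary like the others. With entries whose ends lie within 5 bases summed, an alternative added after seeing the data, circRNA8062 moved to a log2 fold change of 0.0289 from sleeve gastrectomy to relapse. The cause was not tested in these cases.

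Group differences that missed the threshold often changed sign. Without circRNA6045, the differences were 0.460 (sleeve gastrectomy minus sham), 0.449 (relapse minus sleeve gastrectomy) and 0.909 (relapse minus sham) percentage points for the share of reads (library totals unchanged), 1.85, 2.85 and 4.71 for the share of the 10 most abundant entries, and -1.49 for the plus-strand share of sleeve gastrectomy against sham. Without both entries of largest SD, also added after seeing the data, relapse differed from sleeve gastrectomy by 0.592 and 3.57 points for these shares and from sham by 0.435 and 2.76. The median span of relapse minus sleeve gastrectomy was -118.1 bases without these entries, -78.35 with junction sums and -487.5 with at least 5 reads. Relapse minus sham was -0.0287 points for the share of detected entries with at least 5 reads, and -11.5 detected entries with the replicate block.

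Leaving out 1 library at a time, the sleeve gastrectomy minus sham difference ranged from -0.968 to 0.266 points for the share of reads, from -11.55 to 18 detected entries, from -0.107 to 1.44 reads per entry, from -4.32 to 1.005 points for the top 10 share and from -0.0847 to 4.18 for the plus-strand share. Relapse minus sham ranged from -0.152 to 0.299 points for the share of detected entries, from -52.8 to 75.2 entries and from -1403 to 202 bases. Relapse minus sleeve gastrectomy ranged from -1.09 to 0.146 points for the share of reads, from -0.00781 to 0.443 for the share of detected entries, from -57 to 71 entries, from -0.347 to 1.20 reads per entry, from -7.36 to 1.27 points for the top 10 share and from -674.8 to 930.2 bases.

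Against identifier entries alone, the single-read share differed from intronic entries by -0.0521 points and missed the threshold. Weighted by reads, the plus-strand share differed from exonic entries by -4.12 points and missed it too. Counting only overlaps of at least 50% of the span, 11.9% of entries overlapped a host circle. Depth limits the 689 entries not tested.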
